A study of Homo sapiens with 4 samples.

Results

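The respiratory chain genes were taken from the gene count table by symbol. Members were all rows whose symbol starts with NDUF, UQCR, ATP5 or MT-, the cytochrome c oxidase genes from COX4 to COX8, and SDHA, SDHB, SDHC, SDHD and CYC1. The rule found 102 of the 12912 rows. Of these, 89 were nuclear genes and 13 were MT- genes, which are encoded in the mitochondrial DNA itself and which here were all protein-coding. 786-O is a human clear cell renal carcinoma line without functional VHL, the substrate receptor of an E3 ubiquitin ligase that marks hypoxia-inducible factors for degradation. 786-O-Ctrl cells lack VHL, and 786-O-VHL cells carry a retroviral vector for HA-tagged human VHL. Both sublines stably express the triple reporter of GFP, luciferase and thymidine kinase and were grown in RPMI1640 with serum. RNA-seq was performed on 2 libraries of each subline. The labels do not say that libraries of a subline were separate cultures, so p-values measure only the spread between these libraries, which may be technical.

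The respiratory chain passes electrons from NADH and succinate to oxygen and pumps protons across the inner mitochondrial membrane. Complex I oxidizes NADH, complex II oxidizes succinate, complex III moves electrons from coenzyme Q to cytochrome c, complex IV reduces oxygen, and complex V uses the proton gradient to make ATP. Complexes I, III, IV and V combine subunits made from nuclear genes with core subunits made from mitochondrial DNA, while complex II is entirely nuclear. In clear cell renal carcinoma the loss of VHL is known for a shift of metabolism from respiration toward glycolysis.

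Levels are given as CPM, the usual unit of read counts relative to library size, with TMM factors applied. A positive log2 fold change means a higher level in 786-O-VHL. The 786-O-Ctrl libraries held 22141263 counts (the deeper) and 15714166 counts (the shallower), and 786-O-VHL replicates 1 and 2 held 2807779 and 16114120. The limit of 3 counts that a 0 allows was 1.02 CPM in 786-O-VHL replicate 1 and at most 0.199 CPM in the other libraries (counting error only). VHL mRNA was 42.9 and 43.9 CPM in 786-O-Ctrl and 178 and 163 CPM in 786-O-VHL (log2 fold change 1.96, edgeR FDR = 2.86e-19). Of 14 cell type markers listed, 8 were analysed. The renal genes PAX8 and PAX2 were present in every library but fell, PAX8 from 277 and 272 to 166 and 137 CPM (log2 fold change -0.90) and PAX2 from 38.6 and 38.7 to 34.9 and 27.5 CPM (-0.40). VIM (-1.21) and KRT8 (-0.56) also fell, NNMT rose (0.53), and KRT18 (-0.12) and CA9 (-1.21) did not pass. The part of these differences between the sublines in the results below was not tested. The endothelial PECAM1 was at 0.266 to 0.427 CPM, and PTPRC, CD68, CD3E, CDH5, NKX2-1 and CDX2 were not analysed here. Of all 12335 genes tested, 64.5% passed an edgeR FDR under 0.05, with 32.6% higher and 31.9% lower in 786-O-VHL and a median log2 fold change of 0.02. These shares are the background for every count below from this test. With library totals in place of TMM, 41.2% of all genes were higher and 25.1% lower.

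The 13 MT- genes fell in 786-O-VHL, and the nuclear genes were split, with more that fell than rose. All 13 MT- genes passed the test as lower, with a median log2 fold change of -0.69. Of the 89 nuclear genes, 86 were tested, of which 36 fell (41.9%, against 31.9% of all genes), 12 rose (14%, against 32.6%) and 38 did not pass. The nuclear median was -0.18. NDUFA4L2 and COX6B2 passed the filter on low counts only through 786-O-VHL, where they were higher. Without them, 10 of 84 rose and 36 fell. In bulk RNA, fewer cells that express a gene and less RNA per cell cannot be told apart.

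Of the 86 tested nuclear genes, 46 were lower in 786-O-VHL without overlap between the groups in CPM (against 39.2% of all genes) and 23 were higher without overlap (against 40.8%). All 13 MT- genes had 786-O-VHL below 786-O-Ctrl without overlap.

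The balance of the nuclear calls moved with the scaling. With library totals in place of TMM, the median of all genes moved by 0.13 on the log2 scale, and 20 nuclear genes were higher (23.3%, against 41.2% of all genes) and 23 lower (26.7%, against 25.1%). The share of lower genes among the nuclear calls was 75.0% with TMM and 53.5% with library totals. The nuclear median was -0.18 with every library, -0.095 without 786-O-VHL replicate 2 and -0.20 without the much shallower replicate 1. The 13 MT- genes were lower under every scaling, filter and test tried and without each library.

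**Figure D1:**
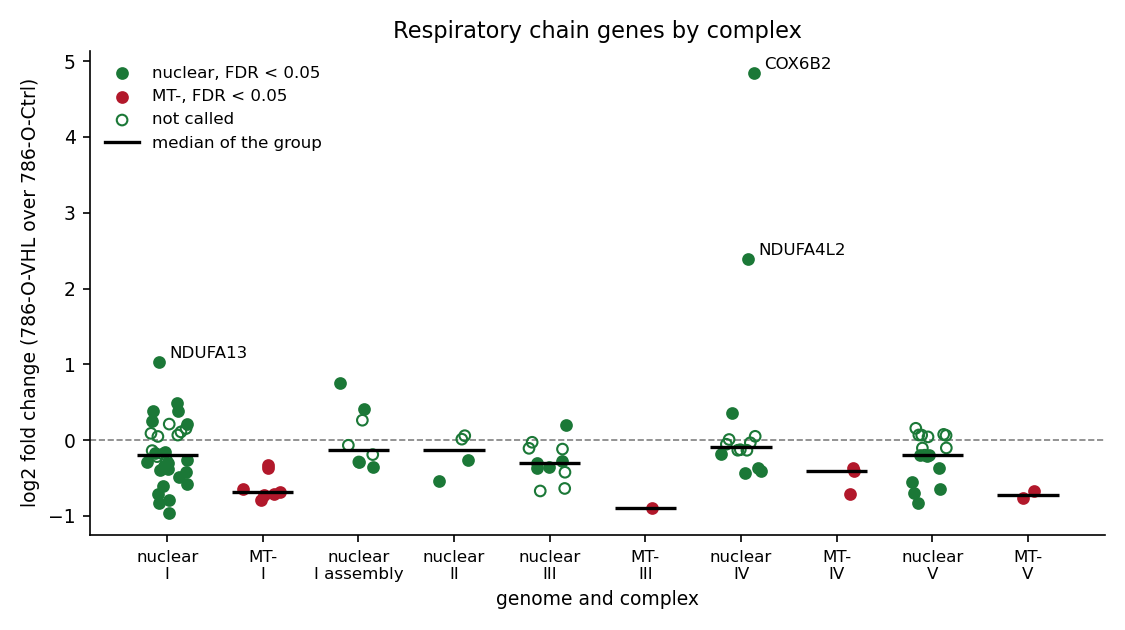
Log2 fold change of each tested member (786-O-VHL over 786-O-Ctrl), by genome and complex. Filled points passed an edgeR FDR under 0.05, open points did not, and bars are medians. The 13 MT- genes lie between -0.90 and -0.32, while nuclear genes lie on both sides of 0, with NDUFA4L2 and COX6B2 far above the rest at very low counts.

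Summed over the 13 genes, MT- transcripts were 25856 and 27334 CPM in 786-O-Ctrl and 18811 and 17147 CPM in 786-O-VHL, a change of -32.4%. Summed over the nuclear members, the level was 7464 and 7348 CPM in 786-O-Ctrl and 6581 and 6534 CPM in 786-O-VHL, a change of -11.5%. Both sums were lower in each 786-O-VHL library than in each 786-O-Ctrl library. As a share of all counts, which uses no TMM factor, the nuclear members took 0.710% and 0.704% in 786-O-Ctrl against 0.691% and 0.683% in 786-O-VHL. By the same measure, MT- genes took 2.46% and 2.62% in 786-O-Ctrl against 1.98% and 1.79% in 786-O-VHL. The Wilson 95% interval of the shallowest library, 1.96% to 1.99%, lies below both control shares and covers counting error only.

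The ratio of MT- to nuclear counts within a library does not depend on scaling. It was 3.46 and 3.72 in 786-O-Ctrl against 2.86 and 2.62 in 786-O-VHL, so that 786-O-VHL had 0.763 times the ratio of 786-O-Ctrl. The groups did not overlap, and the two-sided exact permutation p was 0.333, the smallest that 2 libraries against 2 allow. Leaving out each library in turn gave 0.731 to 0.796 times. By complex, the ratio was lowest against 786-O-Ctrl in complex III, where its MT- member is MT-CYB alone (1.25 and 1.37 in 786-O-Ctrl against 0.808 and 0.778 in 786-O-VHL). In complex I it was 4.83 and 5.24 against 3.92 and 3.73. In complex IV it was 10.3 and 10.9 against 8.53 and 7.71, and in complex V 0.875 and 0.919 against 0.677 and 0.602. No complex had overlapping groups.

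**Figure D2:**
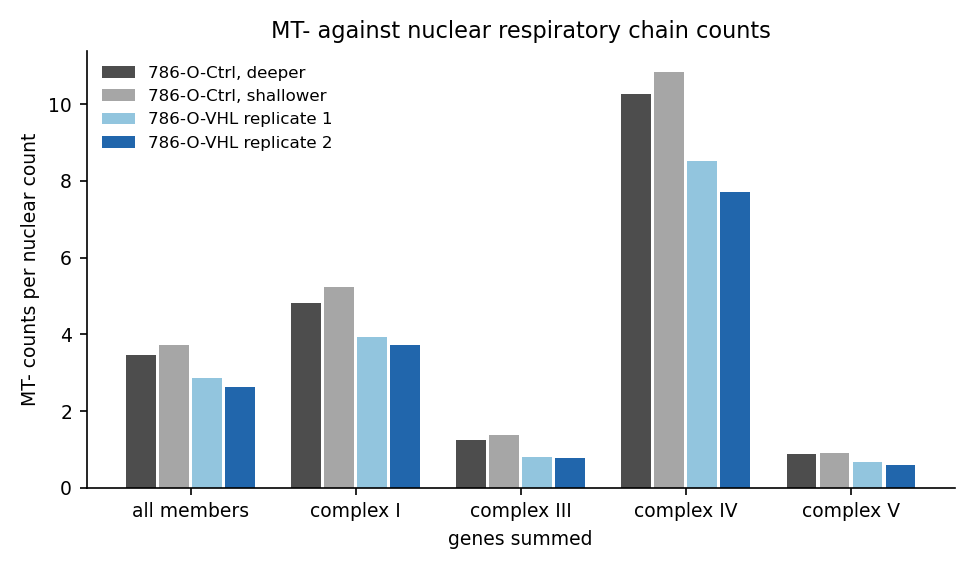
MT- counts per count of nuclear respiratory chain genes in each library, over all members and by complex (y axis, ratio from 0). Complex II has no MT- gene. Both 786-O-VHL bars are below both 786-O-Ctrl bars in each of the 5 groups, with a ratio over all members of 2.86 and 2.62 against 3.46 and 3.72.

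MT-CYB, the cytochrome b of complex III (ENSG00000198727.2), fell most among the MT- genes. It was 1553 and 1653 CPM in 786-O-Ctrl and 875 and 847 CPM in 786-O-VHL. Its log2 fold change was -0.90 (SE 0.06, edgeR FDR = 2.56e-13). MT-ND1, a membrane subunit of complex I, changed least, with 932 and 1022 CPM in 786-O-Ctrl and 812 and 755 CPM in 786-O-VHL (log2 fold change -0.32, FDR = 6.27e-05). The log2 fold changes of the MT- genes thus ranged from -0.90 to -0.32. There were 1.67 and 1.62 MT-CYB counts per MT-ND1 count in 786-O-Ctrl against 1.08 and 1.12 in 786-O-VHL. Both genes were picked as those that changed most and least here, so the gap between the groups partly follows from that choice.

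The other MT- genes of complex I encode subunits of its membrane arm. MT-ND6 was at -0.79, MT-ND5 at -0.72, MT-ND2 at -0.71, MT-ND4 at -0.69 and MT-ND4L at -0.64, while MT-ND3 was at -0.36 on the log2 scale. Among the catalytic core subunits of complex IV, MT-CO2 fell by 0.71, MT-CO1 by 0.41 and MT-CO3 by 0.37 on the log2 scale. MT-CO1, the subunit that holds the oxygen-reducing site, had the highest CPM of all members, at 7030 and 7561 in 786-O-Ctrl against 5963 and 5066 in 786-O-VHL. Per length, MT-CO2 was the higher of the pair in both 786-O-Ctrl libraries, with a mean of 5006 CPM per kb of transcript against 4731 for MT-CO1, and in both 786-O-VHL libraries the order was turned, with 3055 for MT-CO2 and 3576 for MT-CO1. The proton channel subunit MT-ATP6 of complex V was at -0.67. MT-ATP8, a small subunit of the same complex, was at -0.77, with 44.6 and 47.9 CPM in 786-O-Ctrl and 30.2 and 26.2 CPM in 786-O-VHL. The 2 reading frames of complex V overlap, and 22.2% of the MT-ATP8 exon is shared with MT-ATP6.

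Along the mitochondrial genome the changes did not follow a steady trend. From MT-ND1 at the start of the protein-coding genes, values ran -0.32, -0.71 for MT-ND2, -0.41 for MT-CO1, -0.71 for MT-CO2, -0.77 for MT-ATP8, -0.67 for MT-ATP6, -0.37 for MT-CO3 and -0.36 for MT-ND3. From MT-ND4L on they went from -0.64 to -0.90 at MT-CYB, and the log2 fold change of each gene was lower than that of the one before it. Over the 13 genes, which share the same 4 libraries, Spearman's rho between position and log2 fold change was -0.52 (Pearson's r = -0.51), given as a description. MT-ND6, the only member on the other strand of the circle, was at -0.79 between its neighbors MT-ND5 (-0.72) and MT-CYB (-0.90).

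**Figure D3:**
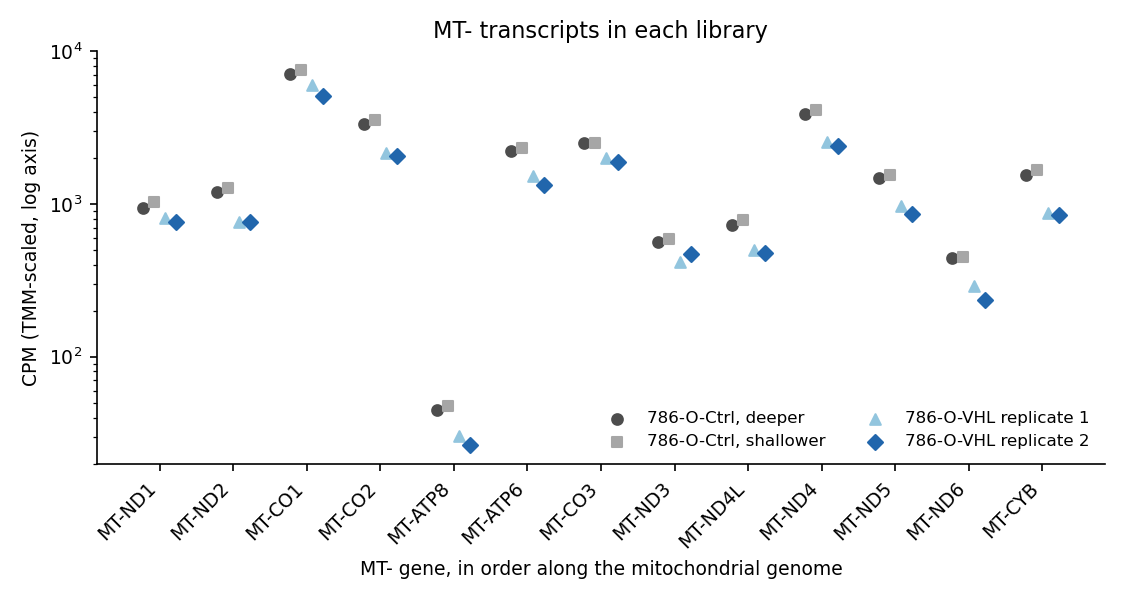
CPM of each MT- gene in the 4 libraries (log axis), in order along the mitochondrial genome. For each of the 13 genes both 786-O-VHL libraries lie below both 786-O-Ctrl libraries, from MT-ATP8 at 26.2 to 47.9 CPM to MT-CO1 at 5066 to 7561 CPM.

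Before the nuclear values, promoter windows of 4 nuclear members are shown, since nuclear respiratory genes are known for sharing binding motifs of NRF1, of ETS factors such as GABPA, and of YY1. NDUFB10 was the nuclear gene that fell most. SDHB fell and SDHA did not pass the test, although both are subunits of complex II. COX5B rose. Each is the 250 bases before the RefSeq start (GRCh38.p14), with matches to any of the motifs searched in capitals.
NDUFB10 (chr16:1959288-1959537, plus strand): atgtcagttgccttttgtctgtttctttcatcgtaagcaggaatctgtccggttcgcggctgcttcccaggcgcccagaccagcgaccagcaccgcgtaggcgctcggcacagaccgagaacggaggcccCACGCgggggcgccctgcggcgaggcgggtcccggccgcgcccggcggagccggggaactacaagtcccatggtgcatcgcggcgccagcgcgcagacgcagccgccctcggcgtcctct
SDHB (chr1:17054033-17054282, minus strand): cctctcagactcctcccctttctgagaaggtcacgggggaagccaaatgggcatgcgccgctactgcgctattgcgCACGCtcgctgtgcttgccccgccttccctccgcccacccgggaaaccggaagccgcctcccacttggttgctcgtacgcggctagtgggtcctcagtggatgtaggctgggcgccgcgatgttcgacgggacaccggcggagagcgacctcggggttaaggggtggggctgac
SDHA (chr5:218070-218319, plus strand): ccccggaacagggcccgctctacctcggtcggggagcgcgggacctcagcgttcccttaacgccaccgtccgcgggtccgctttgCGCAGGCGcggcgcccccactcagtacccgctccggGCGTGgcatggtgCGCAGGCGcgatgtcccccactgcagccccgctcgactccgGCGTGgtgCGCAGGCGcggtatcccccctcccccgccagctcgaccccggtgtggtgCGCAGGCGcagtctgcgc
COX5B (chr2:97645812-97646061, plus strand): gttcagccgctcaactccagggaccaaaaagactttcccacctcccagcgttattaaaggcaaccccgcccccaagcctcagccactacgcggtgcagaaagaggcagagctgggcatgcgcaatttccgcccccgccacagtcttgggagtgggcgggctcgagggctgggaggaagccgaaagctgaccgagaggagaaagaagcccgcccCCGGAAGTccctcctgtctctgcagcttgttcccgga

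The motifs searched on both strands were CGCANGCG for NRF1, CCGGAAGT for ETS factors, AAGATGGCG for YY1, and ACGTG or GCGTG for the core of the hypoxia response element. SDHA held 4 matches to the NRF1 motif and 2 to the hypoxia core. In the 250 bases shown, SDHB and NDUFB10 held 1 match each, to the hypoxia core, and COX5B held 1 match to the ETS motif. With the 50 bases after the start added, SDHB also held 1 match to the YY1 motif, and COX5B held 2 to the ETS motif. In windows of 300 bases, from 250 before to 50 after the start, the NRF1 motif was found in 22 of the 69 nuclear members with a RefSeq window (31.9%) and in 10.6% of all 27305 windows. It was in 6 of 25 members that fell, 2 of 9 that rose and 13 of 32 that did not pass. The ETS motif was in 8 of the 69 (11.6%, against 4.44% of all windows) and the YY1 motif in 7 (10.1%, against 1.85%). The hypoxia core, which is short, was in 43 of the 69 (62.3%) and in 48.4% of all windows. A match is a description of letters, not of binding.

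In complex I, 16 of the 32 nuclear subunit genes tested fell (50%), 6 rose (18.8%) and 10 did not pass. Over all genes, 31.9% fell and 32.6% rose. The complex I median log2 fold change was -0.20. With library totals, 11 were lower and 8 higher (against 25.1% and 41.2% of all genes), with a median of -0.067. The 6 that rose became 2 with DESeq2 and 2 after thinning to the shallowest library. Over all genes, 4017 were higher in the main test, 2861 with DESeq2 and 2894 after thinning. The complex I median was -0.18 and -0.21 without the deeper and the shallower control library, and -0.11 without 786-O-VHL replicate 2. NDUFB10, a subunit of the membrane arm (ENSG00000140990.15), was 73.3 and 69.9 CPM in 786-O-Ctrl and 39.7 and 36.0 CPM in 786-O-VHL (log2 fold change -0.96, SE 0.08, FDR = 5.14e-11). NDUFB3, also of the membrane arm, was 44.4 and 47.3 against 26.1 and 25.6 CPM (-0.83, FDR = 2.55e-08). NDUFS5, on the intermembrane side, was 168 and 161 against 100 and 92.7 CPM (-0.79, FDR = 4.35e-11). For these genes both 786-O-VHL libraries were far below both 786-O-Ctrl libraries. Subunits of the peripheral arm, which takes electrons from NADH, went both ways. NDUFS6 (-0.72), NDUFS3 (-0.58) and NDUFV1 (-0.31) fell, while NDUFS4, NDUFS7 and NDUFS8 passed as higher, each of them not without 786-O-VHL replicate 2 and not with DESeq2. NDUFV1 did not pass after thinning (FDR = 0.0799).

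NDUFS4, known for Leigh syndrome when mutated, was 18.7 and 16.3 CPM in 786-O-Ctrl and 21.0 and 26 CPM in 786-O-VHL (log2 fold change 0.49, FDR = 0.00126). NDUFS7, which carries the last iron-sulfur cluster before coenzyme Q, was 22.5 and 18.8 against 23.1 and 28.5 CPM (0.39, FDR = 0.0074). In both genes replicate 2 was the higher of the 786-O-VHL libraries, and neither passed without replicate 2 (FDR = 0.351 and 0.596) or with DESeq2 (0.0647 and 0.154), nor without the shallower control library (0.0597 and 0.209). NDUFS8, another iron-sulfur subunit, was 113 and 112 CPM in 786-O-Ctrl and 118 and 136 CPM in 786-O-VHL (0.21, FDR = 0.00874), so that replicate 1 was close to the controls. It was at 0.058 without replicate 2 (FDR = 0.614), and it did not pass with DESeq2 (0.155) or without the deeper (0.124) or the shallower control library (0.157). NDUFB9 rose from 103 and 99.9 CPM to 136 and 131 CPM (0.38). NDUFA13, also known as GRIM-19, was higher at 5.43 and 4.63 CPM in 786-O-VHL against 2.37 and 2.33 CPM (1.03, SE 0.28, FDR = 0.00226), and 21.0% of its exon length is shared with other genes on its strand. When every library was thinned to the shallowest, its log2 fold change was 0.19 (FDR = 0.743). By name series, 6 of 11 NDUFB genes fell and 2 rose, 5 of 10 tested NDUFA genes fell and 1 rose, and neither of the NDUFC genes passed. Of all genes, 31.9% fell and 32.6% rose.

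Of 8 complex I assembly factors named NDUFAF, 2 rose, 2 fell and 4 did not pass. The shares were 25% and 25%, against 32.6% and 31.9% of all genes. With library totals, 3 of these factors were higher and 1 lower, where 41.2% of all genes were higher and 25.1% lower. NDUFAF1, which helps build the membrane arm, was 11.3 and 10.4 CPM in 786-O-Ctrl and 20.7 and 17.7 CPM in 786-O-VHL (0.76, FDR = 5.56e-05). NDUFAF2 was 16.6 and 19.1 against 24.4 and 23.5 CPM (0.42, FDR = 0.00468), and did not pass with DESeq2 (FDR = 0.0824), without the deeper control library (0.151) or without 786-O-VHL replicate 2 (0.0649). The factors that fell were NDUFAF3 (-0.35) and NDUFAF8 (-0.29), the latter not without the deeper control library (FDR = 0.0697). All 4 had groups that did not overlap, as did 39.2% of all genes in the lower direction and 40.8% in the higher.

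In complex II, 2 of 4 genes fell (50%, against 31.9% of all genes) and 2 did not pass. The median was -0.13, and 0.01 with library totals. The iron-sulfur subunit SDHB was 76.9 and 75.9 CPM in 786-O-Ctrl and 49.2 and 53.7 CPM in 786-O-VHL (-0.54, SE 0.08, FDR = 4.77e-07). The membrane anchor SDHC fell from 107 and 106 CPM to 90.2 and 88.0 CPM (-0.27, FDR = 0.00121), and did not pass with library totals (-0.13, FDR = 0.0857). The other anchor, SDHD, had a log2 fold change of 0.01 (FDR = 0.913) and the flavoprotein SDHA of 0.06 (FDR = 0.704), both with overlapping groups. SDHA shares 21.7% of its exon length with another gene, and 4 pseudogenes carry its name.

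In complex III, 4 of 11 nuclear rows fell (36.4%, against 31.9% of all genes), 1 rose (9.09%, against 32.6%) and 6 did not pass. The median was -0.30. The genes that fell were UQCR10 (-0.37), UQCRH (-0.35), UQCRB (-0.30) and the cytochrome c1 gene CYC1 (-0.27). With library totals, UQCRH and UQCRB still passed as lower and UQCR10 and CYC1 did not (median -0.17). UQCR10 did not pass with DESeq2 (FDR = 0.133), without the deeper control library (0.334) or without 786-O-VHL replicate 2 (0.248). CYC1 was the most abundant of these in CPM, with 368 and 345 in 786-O-Ctrl against 278 and 308 in 786-O-VHL. It did not pass without the deeper control library (-0.23, FDR = 0.0682) or with library totals (-0.13, FDR = 0.066). UQCRFS1, the Rieske iron-sulfur protein, was 89.8 and 86.9 CPM against 105 and 100 CPM (0.20, FDR = 0.0127). Both 786-O-VHL libraries were slightly above the controls, and the gene did not pass with DESeq2 (FDR = 0.131) or without either control library (0.0933 and 0.185). The core protein UQCRC1 was at -0.03 (FDR = 0.715). UQCRC2, the other core protein, has 2 rows of almost the same counts and at 0.712 to 1.36 CPM, neither of which passed. UQCRHL, a copy closely related to UQCRH, was at 1.36 to 3.79 CPM.

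**Figure D4:**
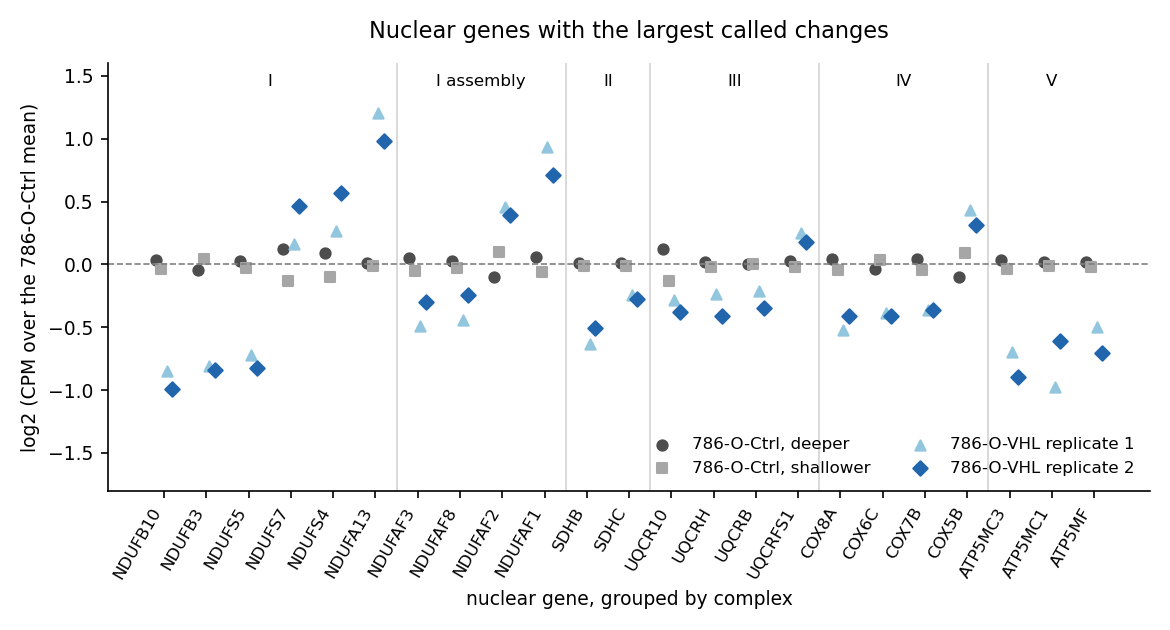
CPM of nuclear genes in each library over the mean of 786-O-Ctrl (log2 scale), for up to 3 genes that fell and 3 that rose most in each complex, without NDUFA4L2 and COX6B2. The 786-O-Ctrl libraries lie near 0, and the 786-O-VHL libraries are clearly apart for NDUFB10, NDUFB3, NDUFS5 and NDUFAF1 and close to a control library for NDUFS7.

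Complex IV had a nuclear median of -0.09 (0.04 with library totals). Of its 14 nuclear genes, 4 were lower (28.6%, against 31.9% of all genes), 3 higher (21.4%, against 32.6%) and 7 did not pass. Of the 3 higher, NDUFA4L2 and COX6B2 were tested only because 786-O-VHL reached the count filter, and COX5B alone was higher with at least 10 counts in every library or without 786-O-VHL replicate 2. COX8A fell from 82.6 and 77.9 CPM to 56.0 and 60.4 CPM (-0.44, FDR = 9.60e-06), COX6C was at -0.40 and COX7B at -0.36, all small subunits around the catalytic core. COX8A shares 35.4% of its exon length with another gene on its strand. COX5B was 88.3 and 101 CPM in 786-O-Ctrl and 128 and 117 CPM in 786-O-VHL (0.35, SE 0.07, FDR = 0.000124), higher in both libraries. COX4I1, the ubiquitous form of subunit 4 and an early step of assembly, was 277 and 266 CPM against 258 and 270 CPM, with overlapping groups (-0.03, FDR = 0.648). COX4I2, its hypoxia-responsive counterpart, was not analysed here, and neither were COX6A2, COX7A1, COX7B2 and COX8C. Of the remaining isoform families, COX6A1 (0.01), COX6B1 (-0.13), COX7A2 (-0.05) and COX7A2L (-0.13) did not pass.

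NDUFA4 was first named as a complex I subunit and is a subunit of complex IV. NDUFA4L2 is its paralog and is known as a gene induced by hypoxia-inducible factors that lowers complex I activity. NDUFA4 was 134 and 128 CPM in 786-O-Ctrl and 124 and 112 CPM in 786-O-VHL (-0.18, SE 0.07, FDR = 0.0219), a difference that did not pass with DESeq2 (FDR = 0.126), with library totals (-0.05, FDR = 0.546) or, of the libraries, without the deeper control (0.294), the shallower control (0.106) or 786-O-VHL replicate 2 (0.447). NDUFA4L2 (ENSG00000185633.10, chromosome 12 of GRCh37 from 57628686 to 57634498, minus strand) had 7 and 9 counts in 786-O-Ctrl against 3 and 46 in 786-O-VHL, or 0.332 and 0.598 against 1.02 and 2.73 CPM. Both 786-O-VHL values were above both controls, with a fitted log2 fold change of 2.39 (SE 0.49). No library of 786-O-Ctrl reached the 0.628 CPM of the count filter, so the gene was tested only through the group where it was higher, and its call is no independent support. The ratio of the pooled rates was 5.59 (exact 95% interval 3.12 to 10.5, counting error only). Almost all of the counts of 786-O-VHL came from replicate 2, and without that library the log2 fold change was 1.17 (FDR = 0.444). Per length, there were 5.35 and 10.1 NDUFA4L2 transcripts per 1000 of NDUFA4 in 786-O-Ctrl against 17.6 and 52.7 in 786-O-VHL, so that NDUFA4 was far above its paralog in every library.

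COX6B2, the testis form of subunit 6B, had 0 and 1 counts in 786-O-Ctrl against 2 and 19 in 786-O-VHL. The ratio of its pooled rates was 38.3 (exact 95% interval 6.16 to 1585, counting error only). COX6B2 was tested only through 786-O-VHL, so this ratio is no independent support. Its counterpart COX6B1 was at 94.2 and 84.1 against 80.7 and 81.9 CPM. Of all genes tested, 17.5% passed with a change over 2-fold. Among nuclear members this was NDUFA13, beside NDUFA4L2 and COX6B2, which were tested only through 786-O-VHL. NDUFA3, NDUFA7 and NDUFV2 were not tested, with 12, 13 and 14 counts over both 786-O-Ctrl libraries and 20, 8 and 4 over both 786-O-VHL libraries. In all, 10 nuclear members were under 6 CPM in 786-O-Ctrl, of which 5 share over 20% of their exon length with another gene on the same strand. How reads in shared exons were counted is not given in the sources used here, and its part in these low values was not tested. Among the 81 tested nuclear members that do not share over 20%, 35 fell and 10 rose. Among the 60 with no overlapping gene on their strand, 29 fell and 8 rose. Over all genes, whatever their overlap, 31.9% fell and 32.6% rose.

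In complex V, 8 of 17 nuclear genes fell (47.1%, against 31.9% of all genes), 0 rose (against 32.6%) and 9 did not pass. The median was -0.20. With every library at full depth, no nuclear gene of complex V was higher at an unadjusted p under 0.05 in edgeR, DESeq2 or limma-voom. After thinning, 1 was. With library totals, 4 passed as higher and 5 as lower, against 41.2% and 25.1% of all genes. The 8 that fell became 5 with DESeq2 and 5 after thinning. Over all genes, 3939 were lower in the main test, 3147 with DESeq2 and 2862 after thinning. The complex V median was -0.19 without 786-O-VHL replicate 1 and -0.038 without replicate 2. ATP5F1A, the alpha subunit of the catalytic head, was 373 and 366 CPM in 786-O-Ctrl and 290 and 283 CPM in 786-O-VHL (-0.37, FDR = 7.51e-06). Its partner, the beta subunit ATP5F1B, was 697 and 690 against 702 and 748 CPM (0.07, FDR = 0.338). The alpha subunit was thus lower while the beta subunit did not pass. ATP5PB of the peripheral stalk was at -0.55, and ATP5MF of the membrane part was at -0.64 (FDR = 6.92e-09).

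ATP5MC1, ATP5MC2 and ATP5MC3 encode the same mature subunit c of the proton-driven ring, with different import peptides. ATP5MC3 was 204 and 195 CPM in 786-O-Ctrl and 123 and 107 CPM in 786-O-VHL (-0.83, SE 0.07, FDR = 3.26e-11). ATP5MC1 was 90.4 and 88.4 against 45.4 and 58.5 CPM (-0.69, FDR = 1.92e-08). ATP5MC2 was 128 and 135 against 135 and 138 CPM (0.06, FDR = 0.409), and passed as higher with library totals (0.20, FDR = 0.00944). Both genes that fell had groups well apart, and ATP5MC2 differed by little. Per length, ATP5MC2 made up 48.1% and 50.1% of the transcripts of the 3 genes in 786-O-Ctrl against 64.4% and 62.4% in 786-O-VHL. ATP5MC1 went from 33.2% and 32.2% to 21.3% and 25.8%, and ATP5MC3 from 18.7% and 17.7% to 14.3% and 11.8%. The exact permutation p of each share was 0.333, the smallest possible.

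**Figure D5:**
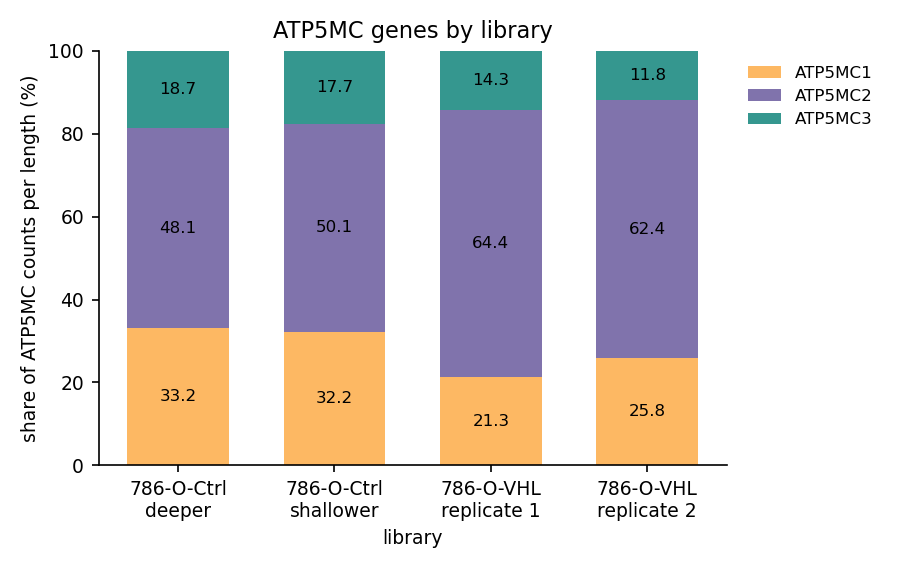
Share of each ATP5MC gene in the counts per length of the 3 genes (y axis, percent), by library. ATP5MC2 takes 48.1% and 50.1% in 786-O-Ctrl against 64.4% and 62.4% in 786-O-VHL.

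Genes outside the membership rule were described from 5 lists, with 31.9% of all genes lower and 32.6% higher as the background. Of 27 tested genes for mitochondrial DNA upkeep, transcription and RNA processing, 15 fell and 4 rose (median -0.25). With library totals, 9 were lower and 5 higher (median -0.12), against 25.1% and 41.2% of all genes. SSBP1, which binds single-stranded mitochondrial DNA, fell most, from 23.1 and 25.5 CPM to 13.9 and 11.6 CPM (-1.0), followed by FASTKD5 (-0.96), which acts on mitochondrial RNA. The mitochondrial RNA polymerase POLRMT (-0.28), the transcription and packaging factor TFAM (-0.38) and the DNA polymerase POLG (-0.59) also fell, POLRMT not with library totals (FDR = 0.0688) and TFAM not after thinning (0.117). The genes that rose most were the polymerase subunit POLG2 (0.60), which did not pass after thinning (FDR = 0.319), and the helicase TWNK (0.38), which did not pass without 786-O-VHL replicate 2 (FDR = 0.0642).

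Among 9 regulators of mitochondrial biogenesis, 2 passed as higher, 1 fell and 6 did not pass. Over all genes, 32.6% were higher and 31.9% lower. The 2 regulators that were higher, PPARGC1A and ESRRG, were not tested when at least 10 counts in every library were required. Of the 7 left, 0 were higher by edgeR (1 at an unadjusted p under 0.05). PPARGC1A, the coactivator PGC-1alpha, was 0.427 and 0.997 CPM in 786-O-Ctrl and 8.14 and 5.17 CPM in 786-O-VHL, from 9, 15, 24 and 87 counts (3.12, SE 0.38). ESRRG, a nuclear receptor that it coactivates, was 0.617 and 0.133 against 2.37 and 2.49 CPM (2.56, SE 0.50). Both 786-O-VHL libraries were above both controls, at low counts. PPARGC1A reached the count filter in 1 of the 786-O-Ctrl libraries and ESRRG in 0, so both were tested only through 786-O-VHL, and their calls are no independent support. PPRC1, a relative of PPARGC1A, fell (-0.29). NRF1, GABPA and YY1, whose motifs were searched above, had log2 fold changes of 0.11, -0.06 and 0.12 and did not pass.

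Of 15 electron carrier genes, 6 rose and 2 fell (median 0.18), where 32.6% of all genes rose and 31.9% fell. With library totals, 8 were higher and 2 lower (median 0.31), against 41.2% and 25.1% of all genes. The 6 that rose became 4 with DESeq2 and 4 after thinning. Over all genes, 4017 were higher in the main test, 2861 with DESeq2 and 2894 after thinning. The coenzyme Q synthesis genes COQ8B (1.03) and COQ9 (0.71) rose most, while PDSS1, which makes the side chain of coenzyme Q, fell from 10.5 and 11.3 CPM to 3.39 and 3.21 CPM (-1.75), and COQ3 was at -0.68, but did not pass without 786-O-VHL replicate 2 (FDR = 0.0841). Cytochrome c itself, CYCS, was at -0.07 and did not pass. Of 42 assembly factors outside the membership rule, 8 rose and 9 fell (median -0.00). With library totals, 16 were higher and 6 lower (median 0.13), against 41.2% and 25.1% of all genes. COX19 (1.08) and SDHAF4 (0.95) rose most, and FOXRED1 (-0.87) and ECSIT (-0.72), both for complex I, fell most. SDHAF4 did not pass without 786-O-VHL replicate 2 (0.23, FDR = 0.543).

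Of 8 respiration genes linked to hypoxia-inducible factors, 3 rose and 2 fell (median -0.14). Over all genes tested, 64.5% passed, with 32.6% higher and 31.9% lower. PDK1, which keeps pyruvate out of the citric acid cycle, was 22.9 and 25 CPM in 786-O-Ctrl and 12.5 and 14.2 CPM in 786-O-VHL (-0.78, FDR = 7.87e-06), and the mitophagy receptor BNIP3 was at -0.33. MXI1, a MYC antagonist (0.85), the iron-sulfur scaffold ISCU (0.84) and the mitochondrial protease LONP1 (0.79) rose. LONP1 was 273 and 263 CPM against 458 and 466 CPM. For these 5 genes the groups did not overlap, as in 39.2% of all genes for lower and 40.8% for higher levels in 786-O-VHL. All 5 had already been called from the same libraries.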

How the data were processed

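The members and gene lists were chosen with earlier results of these data known. Per the labels, reads came from Illumina TruSeq libraries, and the submitters' processing notes name CASAVA, STAR and hg19. The authors deposited raw counts per gene, with no normalized values, and their paper used DESeq2. The counting tool, its strand setting, the annotation and the treatment of multimapped reads were not given in the sources used here, so genes with near-identical copies or overlapping neighbors are uncertain. Both 786-O-Ctrl columns carry the same replicate number and were used as replicates without a number.

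The deposited counts were tested in R 4.3.3 with edgeR 4.0.16: filterByExpr at a minimum count of 10 (12335 genes kept, 577 removed), TMM scaling, the quasi-likelihood F test with group as the only term, and Benjamini-Hochberg adjustment over all genes tested, with calls at FDR under 0.05. SE is the log2 fold change over the square root of F. The biological coefficient of variation was 4.31%. Total counts per library ranged from 2807779 to 22141263. Scripts were tested on simulated counts. Gene positions, exon overlaps and the length of the canonical transcript came from a GRCh37 annotation, with 101 of 102 member rows found, and promoter windows from RefSeq (GRCh38.p14), with 69 nuclear members matched. Windows of ATP5F1B, ATP5F1D, ATP5MC3, ATP5MD, ATP5MF, ATP5MPL, COX6C, CYC1, NDUFA4, NDUFA4L2, NDUFAF6, NDUFB5, NDUFB9, NDUFC2, NDUFS5, SDHC, UQCRB and UQCRHL were not analysed here.

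Genes were named by rule: all MT- genes, isoform families, untested members, up to 3 called genes per direction in each complex, and up to 2 per direction in each list. Other named genes were chosen after their values were seen. Alternatives were DESeq2 1.42.0, limma-voom 3.58.1, RLE factors, library totals, scaling over nuclear genes, other count filters, thinning to the shallowest library, an FDR of 0.01 and leaving out each library.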

Additional observations from a re-analysis of the deposited data

How the results depend on the processing

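The 13 MT- genes were lower and 0 were higher under each of the 13 alternatives to the test, scaling, filter, depth, threshold and libraries. Their median was -0.55 with library totals alone and -0.73 to -0.62 with each library left out. Of the nuclear genes, 6 were higher with DESeq2, 5 after thinning, 20 with library totals and 6 to 14 with each library left out, while 23 were lower with library totals and 25 to 40 with each library left out. The nuclear median was -0.043 with library totals and -0.20 to -0.10 with each library left out. The cause was not tested. NDUFA4L2 was at 1.17 (FDR = 0.444) without 786-O-VHL replicate 2 and at up to 2.76 without the shallower control library. It could not be tested after thinning or with at least 10 counts in every library. The MT- share differed by -0.75 to -0.56 percentage points with each library left out.

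Apart from ATP5MD, the changes of sign listed here were among genes that did not pass. ATP5MD of complex V passed as lower (-0.21) and was at 0.00088 without 786-O-VHL replicate 2. With library totals, COX4I1 was at 0.10, COX6B1 at 9.06e-06, COX7A2 at 0.079 and COX7A2L at 0.0071. COX6A1 was at -0.010 with DESeq2, -0.0057 with RLE factors and -0.072 after thinning, and COX7A2 was at 0.15 after thinning. With each library left out, COX6A1 ranged from -0.037 to 0.038 and COX7A2 from -0.082 to 0.010. Over 63 other named genes and 813 pairs of gene and alternative, 760 kept direction and side of the threshold, 41 lost the call, 1 gained it and 11 changed sign. No paired analysis was possible because both 786-O-Ctrl columns carry the same replicate number. The MT- genes were all protein-coding, so a count of those alone gives the same values. Depth limits the genes with few counts, since 3 counts are 1.02 CPM in 786-O-VHL replicate 1.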
